A study of Mus musculus with 41 samples.

Results

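The 13 p53-null mammary tumors of this series were ordered by their level of Plk2, and the 6 tumors with the highest Plk2 (Plk2-high) were set against the 6 with the lowest (Plk2-low). The comparison uses 12 of the 13 p53-null tumors and 12 of the 41 tumors in the series; the 28 other tumors lack Plk2 as well as p53 (Plk2-null; p53-null). Tumor p53null-2208L holds the middle rank and belongs to neither set, but it enters every correlation with Plk2, which runs over all 13 tumors. The sets were defined by Plk2 itself, so the difference in Plk2 between them is a description and carries no test.

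All 13 tumors were Balb/c, lacked p53, and were grown without treatment after orthotopic injection into syngeneic hosts. Both sets therefore share the loss of p53, and neither contains normal tissue. Bulk tumor RNA was sequenced, 1 library per tumor, from total RNA by a poly(A) mRNA protocol, and the values below are linear gene levels scaled so that the upper quartile of nonzero genes is 1000 in each tumor. The labels do not say that the tumors arose independently, so that p-values measure only the spread between these samples. Libraries of the 13 tumors held between 29409609 and 70868124 fragments, and 3 reads, the smallest count taken as a floor, corresponded to 1.16 to 2.45 units. In bulk tumors, fewer cells of a type and less RNA per cell cannot be told apart.

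Plk2 belongs to the Polo-like kinases, serine/threonine kinases that bind their substrates through a Polo box. Plk1 drives entry into and passage through mitosis and Plk4 controls centriole duplication, whereas Plk2 and Plk3 are immediate-early genes that respond to growth factors and to stress, and Plk5 is mainly neuronal and lacks kinase activity. Plk2 is also a transcriptional target of p53, and in the mammary gland it has been linked to the orientation of the spindle and to cell polarity.

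The stretch just upstream of Plk2 is shown because Plk2 is the gene that set the 2 groups and because its promoter carries a cAMP response element, a sequence bound by CREB and ATF factors. The RefSeq annotation of GRCm38.p6 places the 100 bases before the start of Plk2 at chr13:110394944-110395043 on the + strand.

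Plk2 upstream: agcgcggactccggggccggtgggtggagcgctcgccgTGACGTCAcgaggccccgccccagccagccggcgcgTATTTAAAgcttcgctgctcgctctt

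The first capitals mark TGACGTCA, the palindromic cAMP response element, which begins 62 bases before the start, and the second mark TATTTAAA, a TATA-like stretch that begins 26 bases before it. TGACGTCA occurred on either strand within 250 bases upstream in 439 of 27025 RefSeq promoters (1.62%), and TATTTAAA in 1.76%. None of the promoters of the other 4 Polo-like kinases held TGACGTCA, and neither did any of the 5 promoters matched among the 10 genes most positively correlated with Plk2. A match is only a match of letters.

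Plk2 ranged 43.0-fold over the 13 tumors. In Plk2-low tumors, Plk2 was 186 in tumor p53null-7435, 921 in p53null-5329, 1955 in p53null-2225L, 2317 in p53null-5317, 2516 in p53null-T11 and 3092 in p53null-10152. In Plk2-high tumors it was 3406 in p53null-10151, 3476 in p53null-2396R, 4013 in p53null-2153L, 5264 in p53null-2331L, 6090 in p53null-2224L and 8028 in p53null-10155. The middle tumor p53null-2208L had 3402, next to the lowest Plk2-high tumor, so that the border between the sets is narrow on that side. The mean level was 5046 ± 1803 (SD, n = 6) in Plk2-high and 1831 ± 1081 (SD, n = 6) in Plk2-low tumors, a difference of 1.83 in mean log2 level.

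The contrast thus joins a graded difference among most tumors to 1 tumor that stands far below. Without p53null-7435 the range of Plk2 was 8.72-fold. The SD of Plk2 across the 13 tumors was 1.38 on the log2 scale, a spread larger than that of 95.9% of 1852 genes of similar level. It was 0.82 without tumor p53null-7435, and larger than that of 57.8% of all genes (78.8% with this tumor). Tumor p53null-7435 held 468 reads on Plk2, so that its level was low but well above the floor.

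**Figure D1:**
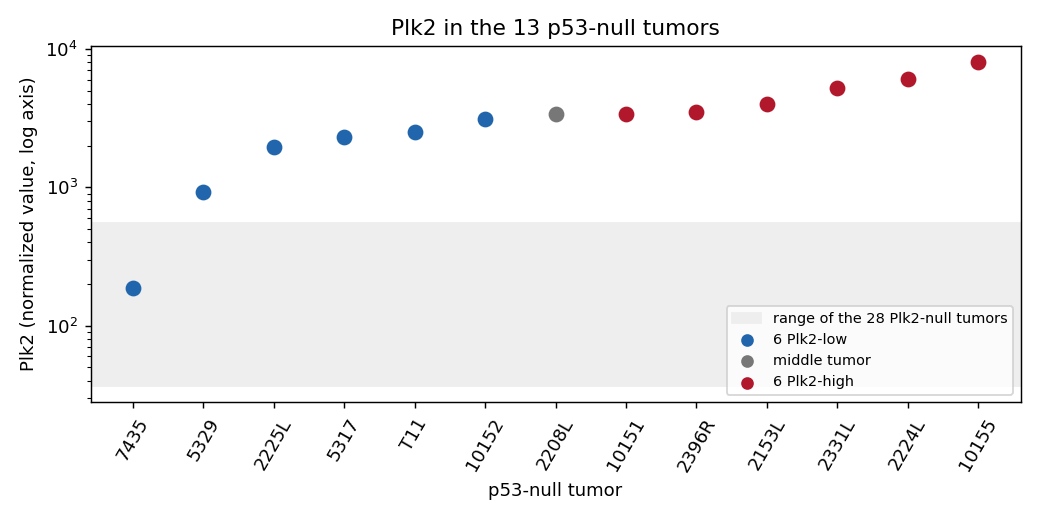
Plk2 level (log axis, upper-quartile normalised units) in each of the 13 p53-null tumors, ordered from lowest to highest, with Plk2-low tumors in blue, the middle tumor in grey and Plk2-high tumors in red. The shaded band is the range of the 28 Plk2-null tumors (36.6 to 553). Tumor p53null-7435 (186) and tumor p53null-5329 (921) lie below the other 11 tumors, which range from 1955 to 8028.

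The label of tumor p53null-7435 was examined with genes chosen after its low Plk2 was seen. Plk2 was higher than in p53null-7435 in 22 of the 28 Plk2-null tumors, in which the deleted locus still gave some reads. The other 12 p53-null tumors differed from the Plk2-null tumors by more than 0.5 log2 at 20 further genes that were higher and 101 that were lower. Tumor p53null-7435 lay on the side of the p53-null tumors for 19 of the 20 and for 95 of the 101. Genotype and library series cannot be told apart here, so that these genes may follow either, and the check cannot settle the label. It also had the highest Malat1 (4139 against a median of 2291 over the 13 tumors) and the highest Clk1 (4571 against a median of 1508), transcripts that are largely retained in the nucleus, but for Neat1, another nuclear RNA, it ranked 4th (7531 against a median of 6776). Skeletal muscle transcripts were abundant in p53null-7435 and in the Plk2-high tumor p53null-2153L. Ckm, muscle creatine kinase, was 4175 and 8999 in these tumors and at most 64.1 in the others, and Myh4, a fast myosin heavy chain, was 8198 and 13656 against at most 27.8. The summed T cell markers were also highest in p53null-7435 (1559), but Lck alone gave 910 of this sum. Lck and Cd4 were higher in p53null-7435 than in p53null-5329, whereas Cd3d, Cd3e, Cd3g, Cd8a and Trac were higher in p53null-5329. Trp53 reads were present in every tumor, between 349 and 5035, with the highest level again in p53null-7435. The share of these features in the results below was not tested.

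Among the Polo-like kinases, Plk2 and Plk1 were the most abundant, and none of the other 4 differed detectably between the sets. Per kilobase of merged exons, Plk2 had a median level of 757 over the 13 tumors (41.5 to 1788) and Plk1 of 502 (214 to 1635). Plk3 followed with 114 (39.7 to 337) and Plk4 with 108 (38.5 to 227), and these ranges overlap almost completely. Plk5 was the lowest at 2.41 (0 to 18.8), or 6.47 (0 to 50.4) before division by length. Plk2 was the highest of the 5 per kilobase in 7 tumors, 5 of them Plk2-high and 2 Plk2-low, and Plk1 was the highest in the other 6. In tumor p53null-7435 Plk2 ranked 4th of the 5.

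**Figure D2:**
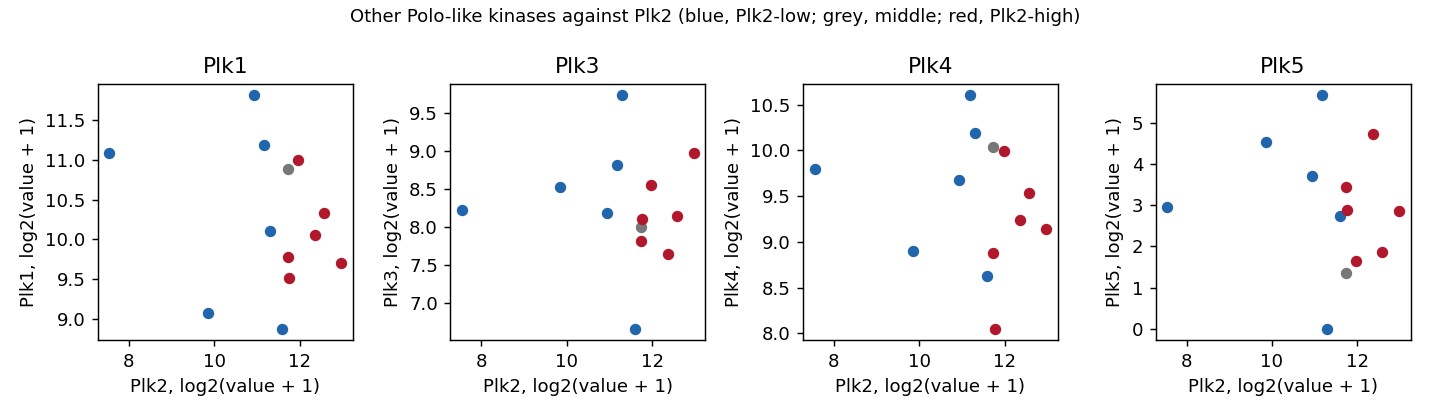
Level of Plk1, Plk3, Plk4 and Plk5 (vertical, log2 of the value + 1) against that of Plk2 (horizontal, same scale) in the 13 tumors, 1 point each, with Plk2-low tumors in blue, the middle tumor in grey and Plk2-high tumors in red. The points scatter without a clear slope, with r between -0.23 (Plk1) and -0.05 (Plk3).

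Plk1, the mitotic kinase, was 729, 973 and 2041 (lowest, median and highest) in Plk2-high and 470, 1641 and 3595 in Plk2-low tumors. The sets overlapped throughout, and the log2 difference was -0.29 ± 0.51 (SE). The correlation of Plk1 with Plk2 was r = -0.23 (permutation p = 0.479, adjusted p = 0.609 over 141 genes; rho = -0.27), or -0.41 without the 2 tumors farthest from the median in Plk2, p53null-7435 and p53null-5329. Plk3, the other stress-induced member, was 200, 280 and 503 against 101, 334 and 854, with a difference of -0.15 ± 0.44 and r = -0.05 (adjusted permutation p = 0.863).

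Plk4 was 264, 585 and 1022 in Plk2-high and 394, 854 and 1555 in Plk2-low tumors. Its log2 difference of -0.49 ± 0.40 lay close to its standard error, and r was -0.16 (adjusted permutation p = 0.693). Plk5 ranged from 2.11 to 25.7 in Plk2-high and from 0 to 50.4 in Plk2-low tumors. Neither gene separated the sets.

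Across the transcriptome, no gene passed the test against Plk2. In the slope of log2 level on log2 Plk2 over the 13 tumors (limma), 0 of 16665 tested genes had an adjusted p below 0.05 (0.00%) and the smallest adjusted p was 0.592. At an unadjusted p below 0.05 there were 500 genes, of which 119 had a positive slope (0.714%) and 381 a negative one (2.29%). In Plk2-high against Plk2-low tumors, 0 of 16665 genes were called (0.00%), with a smallest adjusted p of 0.462. The unadjusted count was 481 (2.89%), of which 349 were higher (2.09%) and 132 lower (0.792%) in Plk2-high tumors. The median over all tested genes was r = -0.08 (-0.02 without tumor p53null-7435) and a log2 difference of 0.02. Of all tested genes, 37.6% had a positive r with Plk2 and 52.2% were higher in the mean of Plk2-high tumors. Every count of genes at an unadjusted p, or by the sign of r or of the difference, given below is to be read against these shares.

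The genes most positively correlated with Plk2 were Rnf14, a RING finger ubiquitin ligase first described as an androgen receptor coactivator (r = 0.83), Capn5, a calpain protease (0.80), Spire1, an actin nucleator (0.78), Rabgef1, an exchange factor for Rab5 (0.78), and Prkar2b, a regulatory subunit of protein kinase A (0.77). Egln3, an oxygen-sensing prolyl hydroxylase induced by hypoxia (0.77), Cxxc5, a CXXC zinc finger protein that restrains Wnt signalling (0.76), Etf1, the translation release factor (0.76), Vav3, a guanine nucleotide exchange factor (0.74), and Abcc4, an efflux transporter of cyclic nucleotides (0.73), completed the first 10. The 11th gene, Igfbp2, had r = 0.73. These genes were chosen by their correlation, which is therefore a description.

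Tumor p53null-7435 weighed on this ranking, since 8 of the 10 genes had their lowest level there. Without tumors p53null-7435 and p53null-5329, r stayed high for Rnf14 (0.75), Vav3 (0.71), Abcc4 (0.69), Cxxc5 (0.64) and Spire1 (0.62). It was 0.36 for Rabgef1, 0.22 for Etf1 and 0.20 for Egln3. The sample titles carry a running series number, and within numbers 16 to 21 (6 tumors, p53null-7435 and p53null-5329 among them) r was between 0.72 and 0.96 for the 10 genes, whereas within numbers 1 to 14 (7 tumors) it was between 0.14 and 0.79. On chromosome 18 lay 4 of the 10, Rnf14, Spire1, Cxxc5 and Etf1.

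At the negative end stood Ccdc91, a trans-Golgi adaptor (r = -0.90), Taf3, a subunit of TFIID (-0.86), Mrpl47, a mitochondrial ribosomal protein (-0.85), Rhox4b, a homeobox gene of the X-linked reproductive cluster (-0.85), and Lipt1, which transfers lipoate to mitochondrial dehydrogenases (-0.84). Orc2, a subunit of the origin recognition complex (-0.84), Ndufs1, the largest subunit of complex I (-0.84), Ankmy1 (-0.84), Fam134a, an ER-phagy receptor family member (-0.84), and Hspd1, the mitochondrial chaperonin HSP60 (-0.83), followed. The 11th gene, Asz1, had r = -0.82. All 10 had their highest level in tumor p53null-7435.

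Hspd1, Mrpl47, Orc2 and Ndufs1 kept r of -0.85, -0.80, -0.77 and -0.71 without tumors p53null-7435 and p53null-5329, while Taf3 had -0.39, Ankmy1 -0.28 and Rhox4b 0.09. Hspd1 was 8676, 12104 and 13853 in Plk2-high tumors and 13339, 14732 and 28719 in Plk2-low tumors. Its sets overlapped only between 13339 and 13853, with a log2 difference of -0.60 ± 0.25 (SE). Of the 10 genes, 5 lay on chromosome 1 (Lipt1, Orc2, Ndufs1, Ankmy1 and Hspd1).

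Separation of the 6 Plk2-high from the 6 Plk2-low tumors with no overlap was rare. It was seen for 14 genes that were higher in Plk2-high tumors (0.0840% of 16665) and 5 that were lower (0.0300%), 0.114% in all, and these were named for that separation. Arhgap40, a GTPase-activating protein, was 59.9, 406 and 752 in Plk2-high tumors and 0.43, 10.7 and 27.8 in Plk2-low tumors. The log2 difference was 5.06 ± 0.78 (SE), or 33.2-fold, and the adjusted p of 0.462 was the smallest of all genes. The middle tumor p53null-2208L, whose Plk2 was almost that of the lowest Plk2-high tumor, had 3.51.

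Ctdspl, a small C-terminal domain phosphatase that dephosphorylates RB1, was 1714, 2309 and 2871 against 258, 578 and 1314, a difference of 1.89 ± 0.39. Trp53inp2, an autophagy protein, was 2733, 2952 and 3765 against 1088, 1606 and 2068, a difference of 1.04 ± 0.23. Both genes were abundant in every tumor, so that the separation does not rest on values near the floor. Insig2, a sterol-regulated ER protein, was 1289, 1534 and 2233 against 775, 1003 and 1209 (0.74 ± 0.22).

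Signalling genes were among the rest. Nrg4, a ligand of ErbB4, was 22.2, 36.4 and 69.6 in Plk2-high and 8.32, 12.9 and 20.2 in Plk2-low tumors (1.52 ± 0.29). Fgfr4, a fibroblast growth factor receptor, was 8.41, 36.2 and 446 against 2.16, 3.73 and 8.37 (3.28 ± 0.76), so that its nearest tumors of the 2 sets were almost equal, at a low level. Mpzl3, a cell adhesion protein of the epidermis, differed by 1.38 ± 0.31, Afap1l1, an actin-associated adaptor, by 1.58 ± 0.41, Fam65b by 1.79 ± 0.49, and Pcdh20, a protocadherin present at low level, by 2.47 ± 0.50. The remaining genes of the 14 were Jak2, a cytokine receptor kinase, Ctnna1, alpha-catenin, and the predicted genes Gm37874 and 4632428C04Rik.

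The 5 genes that were lower without overlap all act in the making of ribosomes. Rrs1, an assembly factor of the large subunit, was 955, 1123 and 1301 in Plk2-high and 1435, 1786 and 2829 in Plk2-low tumors (-0.72 ± 0.20). Wdr12, a member of the PeBoW complex that processes large-subunit RNA, was 795, 990 and 1155 against 1173, 1561 and 2204 (-0.67 ± 0.20). Nop58, a core protein of box C/D small nucleolar particles, was 2269, 2732 and 2996 against 3333, 3697 and 4673 (-0.53 ± 0.18). All Plk2-low tumors exceeded all Plk2-high tumors in each, by construction of the choice.

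Cd3eap, a subunit of RNA polymerase I, was 821, 956 and 1238 in Plk2-high and 1269, 1343 and 2390 in Plk2-low tumors (-0.62 ± 0.22). Wdr75, a processing factor of the small subunit, was 1162, 1292 and 1332 against 1395, 1523 and 2271 (-0.41 ± 0.20). Except for Cd3eap, the 5 genes lie on chromosome 1.

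A list of 58 ribosome biogenesis genes was drawn up after these 5 had been seen, and it is described without a test. In 54 of the 58 the mean was lower in Plk2-high tumors, with a median log2 difference of -0.35. Leaving out the 5 genes, 49 of 53 were lower, with a median of -0.34. The list follows the theme of the 5 genes in these same tumors, so that leaving them out does not make it independent. Ncl, the nucleolar protein nucleolin, was 16962, 23086 and 27877 in Plk2-high tumors and 26805, 30825 and 43356 in Plk2-low tumors. In 19 of the 58 the highest of the 13 tumors was p53null-2225L, and without it the median was -0.31. Over the 13 tumors 49 of the 58 had a negative r with Plk2 (median -0.22), and without tumor p53null-7435, 55 did (median -0.36). Scaling by trimmed means brought the median r to -0.05 and left the median log2 difference at -0.36.

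**Figure D3:**
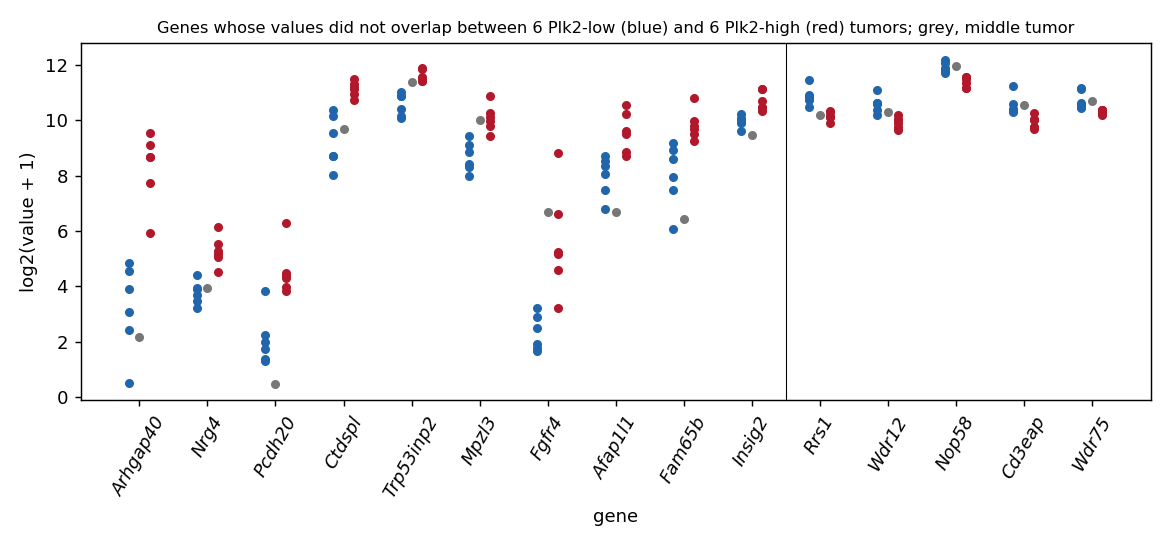
Level (log2 of the value + 1) of the 15 genes named because the sets do not overlap, 1 point per tumor, with Plk2-low tumors in blue, the middle tumor in grey and Plk2-high tumors in red. Genes higher in Plk2-high tumors are on the left of the line and those lower on the right. Arhgap40 spans 59.9 to 752 in Plk2-high and 0.43 to 27.8 in Plk2-low tumors, and the 5 lower genes are separated by small steps.

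Markers of the mammary lineages were mostly higher in the mean of Plk2-high tumors, but their correlation with Plk2 was weak, and all but the myoepithelial difference depended on 1 Plk2-low tumor. The median r with Plk2 was 0.29 for myoepithelial, 0.07 for luminal, -0.04 for basal and -0.01 for claudin and junction genes (8 of 10, 13 of 19, 6 of 16 and 7 of 14 positive), and 0.54, 0.19, 0.03 and 0.16 without p53null-7435. Of the myoepithelial genes, 9 of 10 were higher in the mean of Plk2-high tumors, with a median log2 difference of 1.81, and 4 of the 10 were higher and 0 lower at an unadjusted p below 0.05. Acta2, smooth muscle actin, was 10657, 21387 and 92274 in Plk2-high and 2805, 4007 and 57576 in Plk2-low tumors (2.09 ± 0.78). Myl9, a myosin light chain, was 2871, 5770 and 20752 against 481, 1181 and 13231 (2.19 ± 0.77), and Tagln, an actin-binding protein, was 1836, 8393 and 33448 against 1494, 2164 and 14167 (1.53 ± 0.70). For Acta2 and Myl9 all Plk2-high tumors lay above 5 of the 6 Plk2-low tumors, and the overlap came from p53null-10152 alone, which held the highest Plk2 of the Plk2-low tumors. The middle tumor p53null-2208L did not follow this order, with 2833 for Acta2 and 341 for Myl9. The median difference was 1.55 without tumor p53null-T11 and 1.88 without tumor p53null-7435.

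The luminal, basal and claudin lists depended on p53null-T11. Tumor p53null-T11, which the paper lists as claudin-low, was very low in many epithelial transcripts, with 81.4 for Epcam, 19.9 for Cldn3 and 37.0 for Krt14. Not all were low, since it had 11057 for Krt8 and 22508 for Krt18. Of 19 luminal genes, 18 were higher in Plk2-high tumors, with a median log2 difference of 1.58, but 0.32 without p53null-T11. The basal median was 1.15, and 0.18 without p53null-T11. All 14 claudin and junction genes were higher in Plk2-high tumors (median 1.12, and 0.23 without p53null-T11). In each of these 3 lists 2 genes were higher and 0 lower at an unadjusted p below 0.05.

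Krt7, a luminal keratin, was 4401, 10763 and 24483 in Plk2-high and 18.6, 1289 and 5589 in Plk2-low tumors (4.19 ± 1.29). Prlr, the prolactin receptor, was 343, 2371 and 11191 against 5.63, 137 and 1110 (3.76 ± 1.25), and its r with Plk2 was 0.46 (adjusted permutation p = 0.421), or 0.82 without tumors p53null-7435 and p53null-5329. Esr1, the estrogen receptor, was 26.8, 295 and 1757 against 18.2, 56.0 and 356 (1.77 ± 1.11), with wide overlap. None of the 3 passed adjustment over all genes.

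Other cell types of the stroma were measured through their markers. The summed level of the pericyte markers was 12871 to 23598 in Plk2-high and 7405 to 14802 in Plk2-low tumors, and all 7 pericyte genes were higher in the mean of Plk2-high tumors (median log2 difference 0.70, with 2 higher and 0 lower at an unadjusted p below 0.05). Notch3, a receptor of mural cells, was 2653, 3770 and 4453 against 442, 2105 and 3641 (1.10 ± 0.44), and Kcnj8, a potassium channel of pericytes, had r = 0.72 with Plk2 (permutation p = 0.00637, adjusted p = 0.421), 0.44 without p53null-7435 and 0.62 without p53null-7435 and p53null-5329. Pericytes also express the contractile genes of the myoepithelial list, and the part of either cell type in the difference was not tested.

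The summed endothelial markers were 2041 to 16462 in Plk2-high and 3343 to 8043 in Plk2-low tumors, the fibroblast markers 16879 to 168887 and 26803 to 161122, and the macrophage markers 9987 to 54707 and 8932 to 39291. T cell markers summed to 256 to 630 and 67.1 to 1559. Mammary epithelial markers summed to 115079 to 276620 against 33757 to 212258. The sets overlapped in all 5. Milk protein transcripts summed to 310 to 41565 against 29.5 to 475765, and Csn2, the beta-casein gene, reached 257509 in tumor p53null-5329 alone. Among the defining markers, Ly6g, Pax5 and Glycam1 were each at 0 in 4 tumors, Wap and Ms4a1 in 5, Myh4 in 2, and Retnlg, Acta1 and Csn2 in 1.

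**Figure D4:**
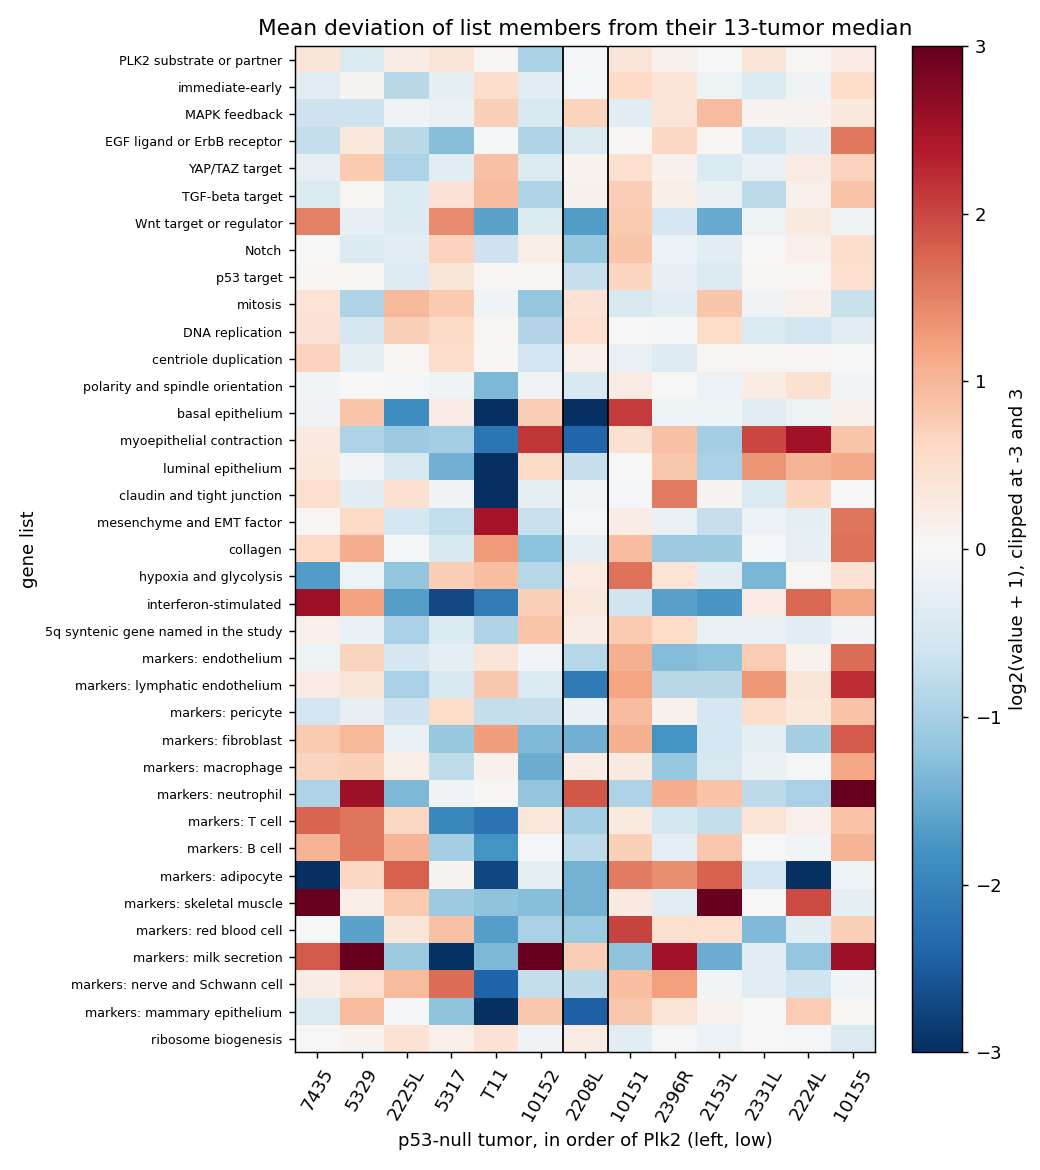
Mean deviation of the members of each gene list from their median over the 13 tumors (colour, log2 of the value + 1, clipped at -3 and 3), with tumors ordered by Plk2 from left to right and the middle tumor boxed. Values below the clip include the basal, luminal, claudin and mammary epithelium lists in tumor p53null-T11. Values above it include skeletal muscle in p53null-7435 and p53null-2153L and milk secretion in p53null-5329 and p53null-10152. The interferon list in p53null-7435 (2.58) lies within it. Few rows change evenly from left to right.

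In the signalling lists, between 0 and 3 members had a slope or a difference at an unadjusted p below 0.05, and none passed adjustment over all genes. The 10 tested EGF ligands and ErbB receptors had a median r of 0.06 (7 positive, from -0.56 to 0.65) and a median log2 difference of 0.67. Areg, an EGF receptor ligand with the highest r of this list, was 110, 262 and 6903 in Plk2-high and 3.98, 36.0 and 1745 in Plk2-low tumors. The log2 difference was 3.30 ± 1.47, and r was 0.65 (permutation p = 0.0132, adjusted p = 0.421) or 0.72 without tumors p53null-7435 and p53null-5329. F3, the tissue factor gene and a YAP target, was 699, 2176 and 7610 against 182, 721 and 1484 (1.75 ± 0.61, r = 0.63, and 0.69 without the 2 tumors). The 20 YAP/TAZ targets as a list had a median r of 0.03 (11 positive, from -0.53 to 0.63) and a median log2 difference of 0.07. All 12 genes of MAPK feedback had a positive r with Plk2 (median 0.35), with 1 positive and 0 negative slopes at an unadjusted p below 0.05. Their median log2 difference was 0.45, and 0.31 without p53null-7435.

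The Wnt pathway had a median r of -0.25 over 16 genes and a median log2 difference of -0.20, but 0.09 and 0.19 without p53null-7435. Lgr5, a receptor of R-spondins, was 1.31, 12.8 and 177 against 19, 163 and 960 (-3.80 ± 1.21), with r = -0.62, and -0.56 without tumors p53null-7435 and p53null-5329. Znrf3, a ligase that removes Frizzled receptors, was 236, 445 and 509 against 306, 612 and 1274 with r = -0.72, and -0.51 without the 2 tumors. Sfrp1, a secreted Wnt inhibitor, was higher in Plk2-high tumors by 2.75 ± 0.92. Of these 16 genes, 3 had a negative slope and 0 a positive one at an unadjusted p below 0.05, and 0 had either without tumor p53null-7435.

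The 16 hypoxia genes and the 16 interferon-response genes depended on tumor p53null-7435. Of the hypoxia genes, 15 had a positive r (median 0.38), and the median was 0.05 without p53null-7435. Slc2a1, the glucose transporter GLUT1, had r = 0.55, and -0.02 without p53null-7435 and p53null-5329. None of the interferon genes had a positive r with all 13 tumors (median -0.24), whereas the median was 0.26 without p53null-7435, and 13 of the 16 were higher in the mean of Plk2-high tumors (median log2 difference 0.19, but 0.79 without p53null-7435, -0.04 without p53null-2225L and -0.15 without p53null-T11). Ifit3, an interferon-induced antiviral gene, was 7478 in tumor p53null-7435 and its r moved from -0.37 to 0.74 without the 2 tumors.

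The direction of the mitosis list, and of the median r of the centriole list, depended on single tumors. The 24 mitosis genes had a median r of -0.12 and 0.04 without p53null-7435, and a median log2 difference of -0.07, 0.13 without p53null-2225L and -0.30 without p53null-5329. The 17 DNA replication genes had a median r of -0.25 (-0.14 without p53null-7435). Their median log2 difference was -0.20 (-0.06 without p53null-2225L and -0.35 without p53null-5329). Cdt1, the replication licensing factor, had r = -0.57 and the only negative slope at an unadjusted p below 0.05. There were 0 such slopes without p53null-7435 (limma). The 14 centriole genes had a median r of -0.25, but 0.07 without p53null-7435. Their median log2 difference was -0.16 (-0.05 without p53null-7435). Cep97, a suppressor of ciliogenesis, had r = -0.72, -0.36 without p53null-7435 and -0.59 without p53null-7435 and p53null-5329. The 20 p53 target genes had a median r of -0.01 in these tumors without p53. Of the 31 immediate-early genes, the family of serum-induced genes to which Plk2 belongs, 26 were higher in the mean of Plk2-high tumors, with a median log2 difference of 0.39 (0.24 without p53null-2225L) and a median r of 0.19 (0.08 without p53null-7435).

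Genes tied to the known roles of Plk2 were measured as well. Of 18 genes of polarity and spindle orientation, 12 were higher in the mean of Plk2-high tumors (median log2 difference 0.25, and 0.11 without p53null-T11), with 1 higher and 1 lower at an unadjusted p below 0.05. Gnai1, a G protein subunit that anchors the spindle at the cortex, was 261, 480 and 1542 in Plk2-high and 27.9, 89.0 and 1437 in Plk2-low tumors (2.20 ± 0.88), and Pard6a, a member of the PAR polarity complex, was 94.2, 121 and 148 against 112, 179 and 232 (-0.54 ± 0.23). The 10 genes of PLK2 substrates and partners had a median difference of 0.18 and none at an unadjusted p below 0.05 in limma.

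Of the 11 collagen genes, 3 were higher in the mean of Plk2-high tumors, with a median log2 difference of -0.43 that was 0.002 without p53null-5329 and -0.16 without p53null-T11. The basement membrane chains were among the 3. Col4a1 was 23928, 47315 and 98224 in Plk2-high and 19870.2, 27535 and 34766 in Plk2-low tumors (0.84 ± 0.32), and Col4a2, its partner chain, was 18042, 31578 and 61810.1 against 11809, 20133 and 22649.9 (0.84 ± 0.29). The summed pericyte markers given above were also higher in most Plk2-high tumors, and their part in the collagen IV values was not tested. Among the 12 Notch genes 9 were higher in the mean of Plk2-high tumors (median 0.25, and 0.12 without p53null-2225L, with Notch3 the only one at an unadjusted p below 0.05), and the 12 TGF-beta targets and 12 mesenchymal factors had medians of 0.08 (-0.06 without p53null-7435) and -0.08 (0.20 without p53null-T11).

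The permutation tests covered 141 genes that were not among the 10 highest r, the 10 lowest r or the genes without overlap. Most of them were list members picked for the smallest p of the slope on Plk2 in these same tumors. The counts and adjusted p-values of this family are therefore descriptions. Of the 141 genes, 12 had a permutation p of r below 0.05 and 22 of rho, and none remained after adjustment. The smallest adjusted p was 0.421 for r and 0.235 for rho (100000 resamples, two-sided).

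The position of the genes was examined after 4 of the 10 highest r had been found on chromosome 18 and 5 of the 10 lowest on chromosome 1. Of 16087 tested genes with a single GENCODE position, 116 had a positive slope (0.72%) and 365 a negative one (2.27%) at an unadjusted p below 0.05. Without tumor p53null-7435 the counts were 222 positive (1.39%) and 212 negative (1.33%) among 15987 genes. Chromosome 1 held 81 negative slopes among 1017 genes (7.96%) and 2 positive ones, and 37 negative (3.67%) without tumor p53null-7435. Chromosome 6 held 50 of 842 (5.94%), and 18 (2.15%) without p53null-7435. Chromosome 11 held 48 of 1295 (3.71%), and 29 (2.25%) without p53null-7435.

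Chromosome 18 held the opposite, 20 positive slopes among 412 genes (4.85%) and 7 negative ones, with 9 positive (2.2%) without p53null-7435. Without p53null-7435 the highest share of positive slopes was on chromosome 9, with 42 of 900 genes (4.67%), against 5 of 908 (0.551%) with all 13 tumors. By trimmed-mean scaling the counts were 57 negative on chromosome 1, 28 on chromosome 6, 24 on chromosome 11 and 52 positive on chromosome 18. Over all chromosomes they were then 246 negative and 209 positive. The median log2 deviation of chromosome 18 genes from their median over the 13 tumors, centred on all genes of a tumor, was -0.49 in p53null-2225L, -0.41 in p53null-7435 and -0.10 in p53null-5329, and 77.3%, 80.6% and 69.2% of its genes lay below 0. For chromosome 1 it was 0.31 in p53null-5329, 0.22 in p53null-7435 and 0.13 in p53null-2225L, but -0.10 in p53null-5317, -0.18 in p53null-T11 and -0.13 in p53null-10152, the other Plk2-low tumors, which lay below all Plk2-high tumors (-0.05 to 0.09). The r of the chromosome 1 median with Plk2 was -0.65, and -0.05 without p53null-7435 and p53null-5329. For chromosome 18 it was 0.68, and 0.46 without them, and the other Plk2-low tumors lay at -0.02, 0.07 and 0.10 against -0.03 to 0.19 in Plk2-high tumors. For chromosome 9 the r was -0.02, and 0.60 without p53null-7435 and p53null-5329. DNA copy number was not measured, and genes on a chromosome are not independent of each other.

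**Figure D5:**
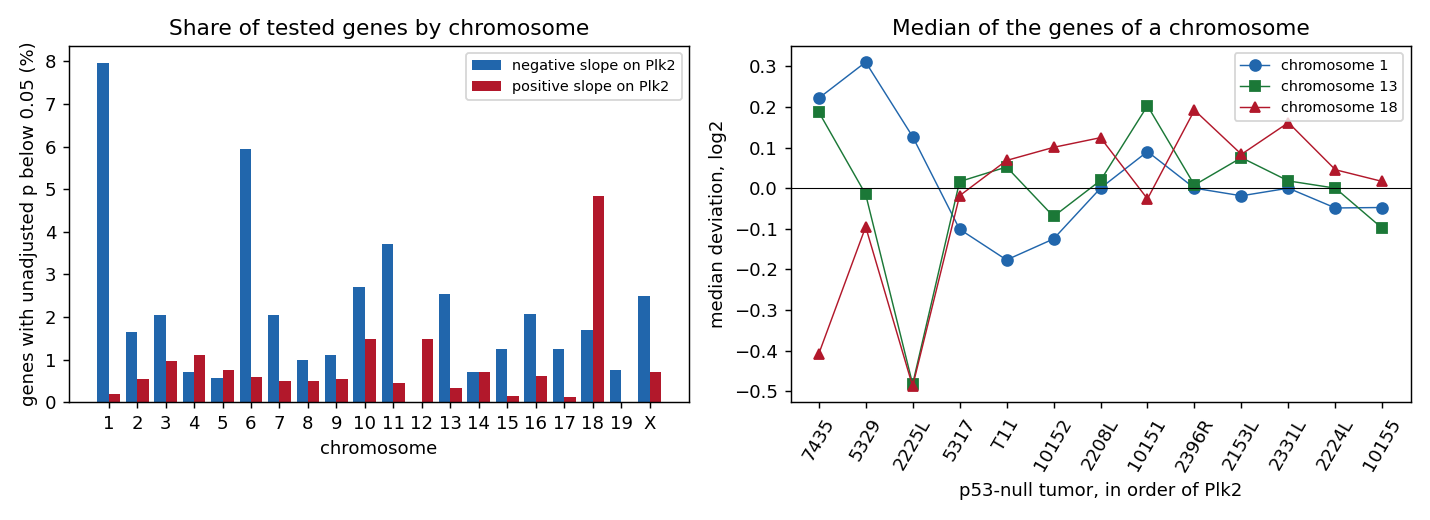
Left, percent of tested genes on each chromosome with a negative (blue) or positive (red) slope on Plk2 at an unadjusted p below 0.05, and right, median log2 deviation of the genes of chromosomes 1, 13 and 18 in each tumor in order of Plk2. Chromosome 1 stands highest for negative slopes (7.96%) and chromosome 18 for positive slopes (4.85%), against 2.27% and 0.72% over all chromosomes, and tumor p53null-2225L is lowest on chromosomes 13 and 18. Without tumor p53null-7435, which is not drawn, the highest share of positive slopes was on chromosome 9 (4.67%), against 2.2% on chromosome 18.

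Genes around Plk2 on chromosome 13 showed no common order with Plk2. The 33 tested genes within 5 Mb had r from -0.71 (Gzmk, a granzyme of lymphocytes) to 0.26 (Esm1, an endothelial proteoglycan). Pde4d, the only one within 1 Mb, is a cAMP phosphodiesterase and had r = -0.07. The median deviation of the 30 of these genes with a mean of at least 100 was 0.24 in tumor p53null-7435, where Plk2 itself deviated by -4.18, and -0.003 in tumor p53null-5329, where Plk2 deviated by -1.88. In tumor p53null-2225L the median was -0.59, with 25 of 30 genes below 0, and Plk2 deviated by -0.80.

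Genes that lie near human PLK2 on the long arm of chromosome 5 were measured as well. Map3k1, a kinase upstream of JNK, had r = -0.07 (adjusted permutation p = 0.839) and a log2 difference of 0.60 ± 0.48. Rad17, a checkpoint clamp loader, had r = -0.18 and a difference of -0.05 ± 0.22. Pik3r1, the regulatory subunit of PI3 kinase, had r = 0.13 and a difference of 0.48 ± 0.64, with 19890 in tumor p53null-10152. None of the 3 had an adjusted p below 0.05 in either comparison (limma), and the 95% interval of each difference included 0, from -0.45 to 1.66 for Map3k1, from -0.52 to 0.42 for Rad17 and from -0.91 to 1.87 for Pik3r1.

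The Plk2-null tumors still gave Plk2 reads, and the slope of every gene on these residual reads was fitted in the same way. Some of the 28 tumors were taken as related, which makes the p-values of this fit and of the genotype comparison too small. Their counts are therefore descriptions, and the slopes are read for direction. Over the 28 Plk2-null tumors, 4942 of 17152 genes were called (28.8%), but 27 of 17013 (0.159%) without tumors PLK2null-743, PLK2null-732 and PLK2null-733, which are classed as claudin-low. Over the 25 remaining tumors, the 10 genes with the highest r in the p53-null tumors had r from -0.37 to 0.61, with 5 positive and 5 negative. Of the 10 lowest, 8 were tested there, with r from -0.24 to 0.28, 7 of them negative. The slopes of the 2 genotypes differed for 1228 of 17207 genes (7.14%), and for 0 of 17102 without the 3 tumors (limma, 1668 at an unadjusted p below 0.05). Plk2-null and p53-null libraries belong to different runs of titles, so that genotype and library series cannot be told apart.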

How the data were processed

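Bulk mRNA of 41 mammary tumors was measured, 13 of them p53-null and 28 Plk2-null and p53-null; groups came from the strain labels. The submitters' processing notes name STAR 2.7.6a, Salmon 1.4.0, Picard 2.22.4 and SAMtools with the mm10 build. The authors deposited gene levels as a normalized signal (47480 symbols) in which the upper quartile of nonzero genes is 1000 in every tumor. Low values gave whole reads within a tolerance of 0.1 reads for only 77.9 to 80.5% of values, so no count model was used. The deposited table holds 0 sample columns that were left unused. Depth was 29409609 to 70868124 fragments in the p53-null tumors, and it limits precision most at low levels.

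From the deposited signal, log2(value + 1) was computed for genes whose mean over the fitted tumors reached 10. Slopes on Plk2 and the comparison of Plk2-high with Plk2-low tumors were fitted in limma 3.58.1 (R 4.3.3) across all tested genes, with Benjamini-Hochberg adjustment and a threshold of 0.05, and fold changes are on the log2(value + 1) scale, which understates the change of low genes. Pearson and Spearman correlations with two-sided permutation p-values (100000 resamples) were computed with scipy 1.17.1 on numpy 2.4.6, in Python 3.11.15 with tables in pandas 2.3.3; matplotlib 3.10.9 drew the figures. Fits were tested on simulated data. Gene positions came from GENCODE M21 (16087 of 16665 tested genes matched once, 96.5%) and promoters from RefSeq.

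The genes named were members of lists (lineage, stroma, signalling, cell cycle and the Polo-like kinases), the 10 highest and the 10 lowest r, and up to 10 genes in each direction (those with the smallest p, predicted genes left out) whose values did not overlap between the sets; of each list, up to 4 members with the smallest p in the slope. Other list members, and the genes outside these rules, were named after their values were seen. Members and lists were chosen with earlier results of these data known. The ribosome biogenesis list, the label check and the chromosome counts were added after values had been seen. Alternatives changed the scaling, pseudocount, filter, variance trend, correlation measure, covariates and the tumors left out. Some single markers are not reported here.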

Additional observations from a re-analysis of the deposited data

Results flagged for a closer look

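The slope on Plk2 was compared between the genotypes for the genes named for their correlation or separation, by the interaction term in limma over all 41 tumors, in which 1228 of 17207 genes were called (7.14%). In the Plk2-null tumors the slope is on the residual reads of a deleted gene, so that the 2 slopes do not measure the same quantity. Related tumors among the Plk2-null ones were fitted as independent, which makes the p-values too small. Of the 43 genes named outside the lists, 12 had an adjusted p below 0.05. The slope (log2 per log2 of Plk2) was lower in the Plk2-null than in the p53-null tumors by -0.34 for Rnf14, -0.31 for Rabgef1, -0.66 for Prkar2b, -0.75 for Cxxc5, -0.63 for Vav3 and -1.29 for Afap1l1. It was higher by 0.52 for Ccdc91, 0.35 for Taf3, 0.40 for Lipt1, 1.22 for Ankmy1, 0.48 for Fam134a and 0.45 for Hspd1. These genes were chosen for an extreme slope or separation in the p53-null tumors, on the opposite side of each difference. Of 133 list members, 31 had an adjusted p below 0.05. These members had been picked as those of each list with the smallest p of the slope in the p53-null tumors, so that their count is not comparable with the 7.14% of all genes.

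Without the claudin-low tumors PLK2null-743, PLK2null-732 and PLK2null-733, 0 of 17102 genes were called by limma (smallest adjusted p 0.241), with 1668 at an unadjusted p below 0.05. Genotype and library series cannot be told apart. Groups of 13 and 28 tumors were not tested for outlying samples.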

How the results depend on the processing

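No gene was called on either contrast under any alternative, except 1 of 30070 genes in the slope on Plk2 without a filter on low values. With single tumors left out, the counts called were 0 to 0 for both contrasts. The slope on residual Plk2 reads called 4942 genes over 28 Plk2-null tumors and 27 without the 3 claudin-low tumors, and the difference in slope called 1228 and 0 (limma). Both fits treat related Plk2-null tumors as independent, so that their counts are descriptions. The count at an unadjusted p below 0.05 moved from 500 to between 345 and 1370 for the slope, the highest without a filter, and was 1083 without tumors p53null-7435 and p53null-5329; for Plk2-high against Plk2-low it lay between 359 and 912. The split of positive against negative slopes, 119 to 381, depended on scaling and on p53null-7435, being 218 to 259 by trimmed means, 254 to 280 by quantiles, 273 to 222 by ranks, 235 to 216 without p53null-7435 and 775 to 308 without p53null-7435 and p53null-5329. Higher against lower counts at an unadjusted p below 0.05 between the sets were 349 to 132, and 302 to 238 by quantiles. They were 399 to 92 with log2 depth as a covariate, 471 to 222 with series number as a covariate and 417 to 263 without p53null-10152. The cause was not tested. Of the named genes, 36 of 172 changed the sign of their slope without p53null-7435, and 53 of 170 without p53null-7435 and p53null-5329. The alternatives that leave tumors out of the lists and chromosome counts were chosen after seeing the data. No paired analysis was possible because replicate numbers were given in accession order only and both sets belong to 1 group.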
